A study of Mus musculus with 6 samples.

Results

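Respiratory complex I, the NADH:ubiquinone oxidoreductase of the inner mitochondrial membrane, was examined through 36 genes of its nuclear-encoded subunits in mouse haematopoietic stem cells. The genes were chosen by name, 26 with the letters Ndufa, Ndufb or Ndufc and 10 with the letters Ndufs or Ndufv. Probe sets annotated to exactly 1 gene were used, and all 36 genes had at least 1 such probe set bright enough to be kept, among 14586 genes tested. The cells came from bone marrow and were labelled as sorted KLSCD34-, that is, for c-Kit and Sca-1, without lineage markers and without surface CD34. The 6 arrays fell into 3 controls, whose genotype is given only as control, and 3 arrays of beta-catenin floxed, vav-Cre positive mice, called floxed arrays here. Vav-Cre is a transgene that drives recombination in blood-forming cells. Whether the controls carried the floxed alleles or the transgene, the ages of the mice, and whether an array stood for 1 animal or a pool are not stated in the sources used here. If the arrays of a group repeated the same animal or pool, a p-value reflects technical spread between these arrays alone.

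Complex I takes electrons from NADH and passes them to ubiquinone while it pumps protons across the membrane. Its peripheral arm, in the mitochondrial matrix, holds the flavin and the iron-sulfur clusters that carry the electrons, and its membrane arm holds the proton channels. A catalytic core is shared with bacteria, and accessory subunits surround it and are needed for assembly or stability. The naming letters follow this only in part, because Ndufs4, Ndufs5, Ndufs6 and Ndufv3 encode accessory subunits, and the product of Ndufa4 is now assigned to complex IV, cytochrome c oxidase. Quiescent stem cells are known for a low use of oxidative phosphorylation, and complex I is a known source of reactive oxygen species. Oxidative stress is named in the title of the series.

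The values were log2 expression levels per probe set, and each gene was given the median of those of its probe sets that were kept. The 36 genes had 207 probe sets annotated to them alone, of which 184 were kept, and 3 further probe sets shared between a complex I gene and another gene were left out. All probe sets were kept for 21 genes, and 1 gene, Ndufb3, rested on a single probe set. The number of arrays limits the precision, and without detection calls no gene could be called absent. As a check of the labels, 5 of 16 kept probe sets of Ctnnb1, the beta-catenin gene, passed. These 5 were lower in the floxed arrays, by differences from −6.90 to −2.51 log2 (limma adjusted p from 1.19e-05 to 0.00137). The others did not pass, with differences from −0.28 to 0.48. Among them probe sets 10590341 and 10590342 were higher in the floxed arrays without overlap (0.27 and 0.26). Across genes, pairs of control arrays correlated at 0.880 to 0.934 and pairs of floxed arrays at 0.962 to 0.972. Of 9 stem cell gate genes 8 were tested and 0 passed. Kit had 11.78, 11.90 and 11.83 log2 in the controls and 11.71, 11.63 and 11.85 in the floxed arrays.

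Promoter sequence was available for 33 of the 36 genes, as 35 windows from 250 bases before to 50 bases after an annotated RefSeq start (assembly GRCm38.p6). Strings known from factors that act on respiratory genes were searched on both strands. The string GCGCANGCG, a form of the site of nuclear respiratory factor 1, lay in 9 of the 35 windows (25.7%), in 8 genes, and in 6.25% of all 32851 windows. The string AAGATGGCG, a form of the site of YY1, lay in 5 windows (14.3%) and in 1.40% of all windows. The string CCGGAAG, the core of ETS factor sites such as that of GABP, lay in 4 windows (11.4%) and in 8.86% of all windows. Other forms that overlap these were searched as well, and ACTTCCGG lay in 1 window (3.89% of all) and CAAGATGG in 4 (2.12%). The strings were chosen with matches in these windows already seen, and longer forms of the NRF1 and YY1 strings that were also searched are not reported. A match is a description of the letters and not evidence of binding.

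The first stretches show the GCGCANGCG form, in capitals on either strand (adjoining capitals are overlapping matches), in the last 60 bases before the start. They are given for Ndufa11, Ndufa5 and Ndufa8, the first genes by alphabet with the match before the start, and for Ndufs6, the gene with the smallest p, which was chosen after its values were seen. Each is written 5′ to 3′ on the strand of the gene.
Ndufa11, chr17:56717702-56717761, plus strand: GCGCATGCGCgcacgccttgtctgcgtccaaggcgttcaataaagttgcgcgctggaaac
Ndufa5, chr6:24527691-24527750, minus strand: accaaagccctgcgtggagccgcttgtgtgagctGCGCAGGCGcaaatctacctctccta
Ndufa8, chr2:36049339-36049398, minus strand: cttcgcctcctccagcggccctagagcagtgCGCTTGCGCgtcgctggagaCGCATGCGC
Ndufs6, chr13:73328483-73328542, minus strand: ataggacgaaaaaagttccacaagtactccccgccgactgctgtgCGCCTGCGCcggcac

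In Ndufa6 the same form lay after the start (chr15:82354248-82354277, minus strand), and in Ndufb6 the ETS core lay far upstream (chr4:40279635-40279664, minus strand). Ndufb6 is shown because of its expression values, which had been seen.
Ndufa6: cgtggcaccgCGCGTGCGCacgctgaaggg
Ndufb6: tcgtccttgttCTTCCGGtcccctccccta

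All 5 matches of AAGATGGCG lay just after the start and on the strand of the gene, where 0.636% of all windows have the string. The letters hold an ATG, so the string can overlap a translation start. The 30 bases around each match, capitals marking the string, show that 4 of the 5 go on with the letters gc.
Ndufa9, chr6:126849096-126849125, minus strand: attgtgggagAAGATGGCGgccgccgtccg
Ndufc1, chr3:51408914-51408943, minus strand: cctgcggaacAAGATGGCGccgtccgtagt
Ndufs4, chr13:114388045-114388074, minus strand: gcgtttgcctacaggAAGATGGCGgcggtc
Ndufs6, chr13:73328433-73328462, minus strand: aagggtcaccggcAAGATGGCGgcggtgct
Ndufs7, chr10:80249463-80249492, plus strand: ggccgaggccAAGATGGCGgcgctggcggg

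No complex I gene passed the test between floxed and control arrays. In limma, 0 of 36 genes passed an adjusted p of 0.05, against 0% of all genes tested, and the smallest limma adjusted p of a complex I gene was 0.667. The genes tested included Ctnnb1. As the median of its 16 kept probe sets it did not pass either, although 5 of these probe sets passed singly. At an unadjusted p under 0.05, 6 of the 36 were higher and 0 lower in the floxed arrays, where 2.43% of all genes tested were higher and 1.28% lower. The difference was above 0 for 25 of 36 genes (69.4%), against 54.2% of all genes tested. The median difference was 0.13 log2, against 0.02 over all genes tested. In 8 genes each floxed array lay above each control array, where 5.57% of all genes tested did so, and in 0 genes each lay below, against 2.87%. The remaining 28 genes had overlapping groups.

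Without control replicate 3, neither the count above 0 nor the median exceeded that of all genes tested. Without that array, 17 of 36 genes had a difference above 0, against 50.4% of all genes tested. The median difference was −0.01, against 0.0019 over all genes tested. In the same fit 5 complex I genes were higher and 0 lower at an unadjusted limma p under 0.05. The median was also smaller without control replicate 2 (0.08) and without floxed replicate 3 (0.06). Under quantile normalization and under equal array medians 22 of 36 genes were above 0, with medians of 0.10 in both, while 45.5% and 46.9% of all genes tested were above 0.

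**Figure D1:**
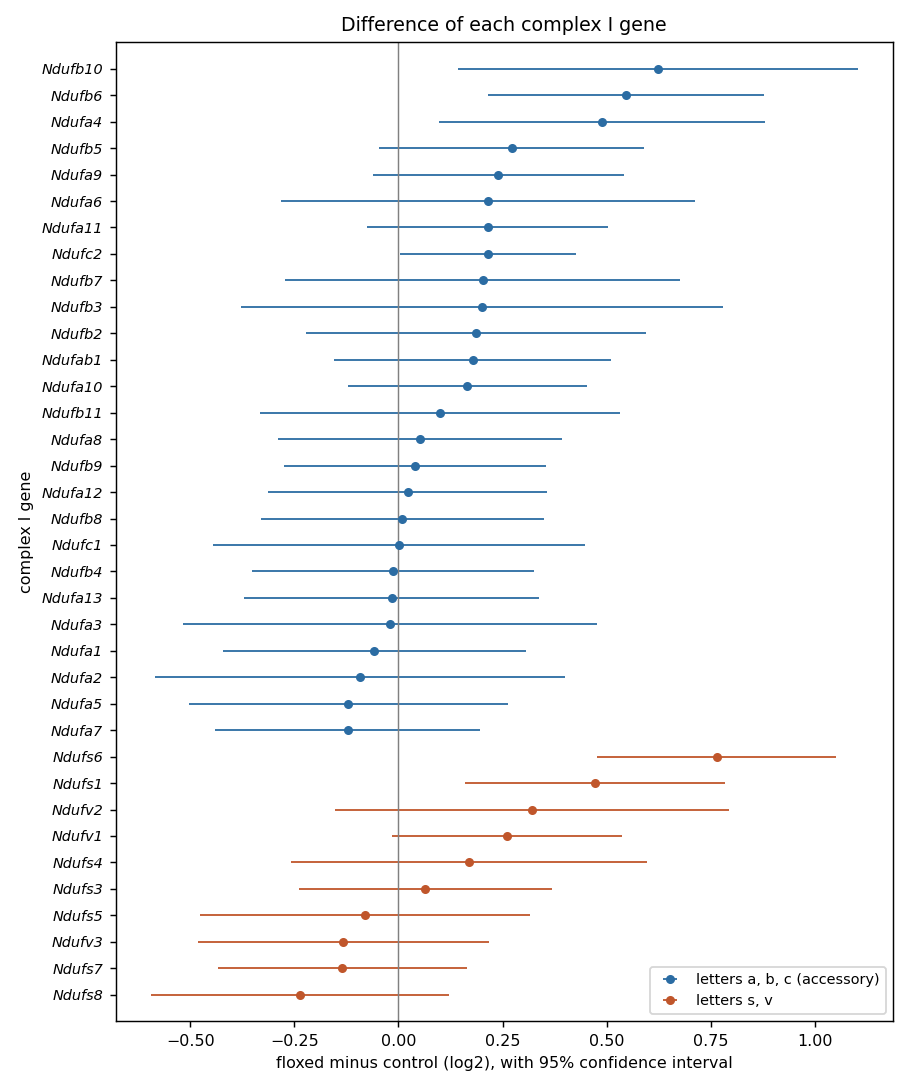
Difference between the means of 3 floxed and 3 control arrays on the log2 scale (horizontal axis) for each of the 36 complex I genes (vertical axis), with bars for the 95% confidence interval of limma, coloured by naming letters. The points run from −0.24 for Ndufs8 to 0.76 for Ndufs6, and 25 of 36 lie above 0.

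Among the 26 genes with the letters a, b and c, all accessory subunits apart from Ndufa4, 19 had a difference above 0 and the median was 0.13. Among the 10 genes with the letters s and v it was 6 of 10, with a median of 0.12. Grouped by structure, 14 of 19 genes of the membrane arm were above 0 (median 0.10), as were 9 of 15 of the peripheral arm (median 0.06). Of the 6 genes of the catalytic core, 4 were above 0 (median 0.16). Differences between these groups were not tested.

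Ndufs6, an accessory subunit that binds zinc and sits at the flavin end of the peripheral arm, had the largest difference of the set when a gene was the median of its probe sets. Its log2 values were 10.52, 10.56 and 10.33 on the controls and 11.02, 11.33 and 11.35 on the floxed arrays. The groups did not overlap, and the lowest floxed value lay 0.47 log2 above the highest control value. The difference was 0.76 log2 (SE 0.13, limma adjusted p = 0.667; higher in 3 of 3 floxed arrays), or 1.70-fold. By exact permutation over arrays, two-sided, p was 0.1, and no smaller value is possible with groups of 3.

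The gene value of Ndufs6 differed more between groups than any of its own probe sets did. Of 4 probe sets 3 were kept. Probe set 10410511 had 10.80, 10.56 and 10.33 in the controls and 11.04, 11.33 and 11.35 in the floxed arrays, a difference of 0.68 (SE 0.16, limma adjusted p = 0.975). Probe set 10410512 had 10.52, 11.21 and 11.32 in the controls and 11.02, 11.45 and 11.44 in the floxed arrays, a difference of 0.29 with overlapping groups. Probe set 10410509 had a difference of 0.25, also with overlap. The median over the 3 was taken from probe set 10410512 on control replicate 1 and floxed replicate 1 and from probe set 10410511 on the other 4 arrays. When each probe set was first centred on its own mean over the 6 arrays, the difference of Ndufs6 was 0.36 (SE 0.13, limma adjusted p = 0.998) and the groups overlapped, and with the mean of the probe sets it was 0.41 (0.41 to 0.87 over the alternatives fixed with the design). With probe sets centred first and with their mean, Ndufb6 (0.53 and 0.59), Ndufa4 (0.44 and 0.47) and Ndufb10 (0.37 and 0.44) had larger differences than Ndufs6. With no filter on dim probe sets Ndufs6 had 0.51 and Ndufb6 0.55. With array weights Ndufs6 had 0.72 and Ndufa4 0.74, and without control replicate 1 Ndufs6 had 0.79 and Ndufb10 0.82. Of the 35 complex I genes with at least 2 kept probe sets, Ndufs6 was the 1 whose gene difference lay outside the range of its probe sets (2.86%, against 2.76% of all such genes).

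Ndufb6, an accessory subunit of the membrane arm, had 10.90, 10.62 and 10.32 log2 in the controls and 11.20, 11.06 and 11.22 in the floxed arrays. The groups did not overlap, with the controls spread over more than the floxed arrays (SD 0.29 against 0.09, n = 3 each). The difference was 0.55 (SE 0.15, limma adjusted p = 0.999), or 1.46-fold. All 3 of its probe sets were higher in the floxed arrays on average, by 0.85, 0.50 and 0.43, and 2 of them without overlap. The largest was on probe set 10512095, with 10.63, 10.40 and 10.44 in the controls and 11.20, 11.38 and 11.43 in the floxed arrays. The gene value came from probe set 10512095 on floxed replicate 1 and from probe set 10512097 on the other arrays. On probe set 10512097 alone the groups overlapped, with 10.85 on floxed replicate 1 and 10.90 on control replicate 1. With each probe set centred first, the gene difference was 0.53 and the groups of the gene value did not overlap. Without control replicate 3 it was 0.40.

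**Figure D2:**
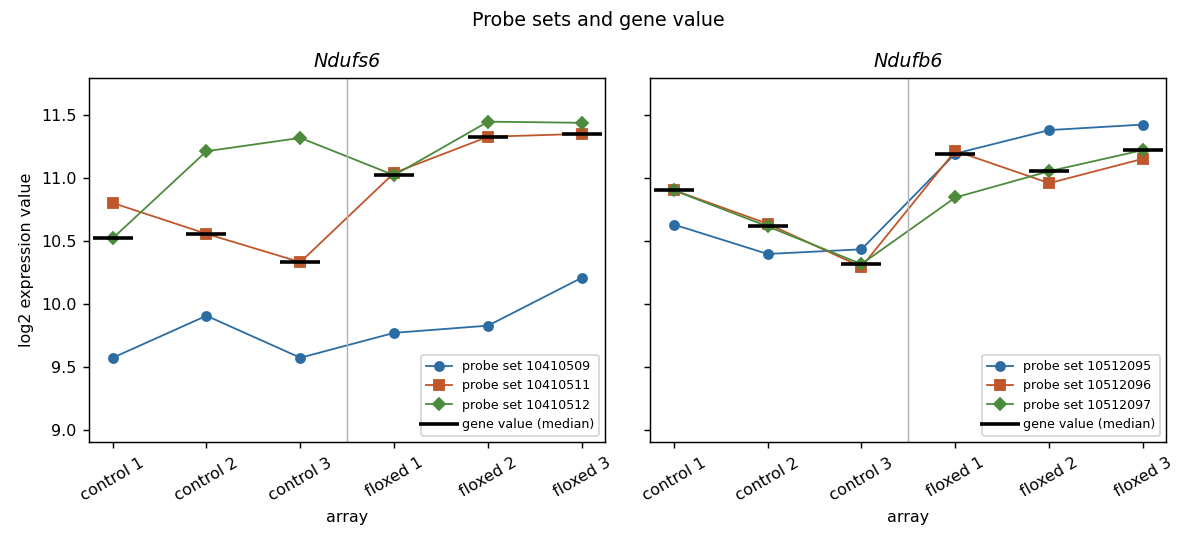
Log2 expression value (vertical axis) of each kept probe set of Ndufs6 and Ndufb6 on each of the 6 arrays (horizontal axis), with black bars for the gene value, the median of the 3 probe sets; lines only join the values of a probe set. For Ndufs6 the bar moves between probe sets 10410511 and 10410512. For Ndufb6 it lies on probe set 10512095 on floxed replicate 1 and on 10512097 on the other arrays. All 3 probe sets of Ndufb6 were higher in the floxed arrays on average, by 0.43 to 0.85.

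Ndufs1, the largest subunit of the peripheral arm and a carrier of iron-sulfur clusters, had 9.126, 9.219 and 9.0005 log2 in the controls and 9.71, 9.45 and 9.60 in the floxed arrays. The groups did not overlap and the difference was 0.47 (SE 0.14, limma adjusted p = 0.999). Of its 15 kept probe sets 14 had a difference above 0, but only 2 were without overlap. Centred first, the difference was 0.22, and with the mean of the probe sets it was 0.23. It was 0.26 with no filter on dim probe sets and 0.05 with only the probe sets above the 75th percentile. On the 6 arrays the median came from 4 different probe sets.

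Ndufv1, which carries the flavin and the site that binds NADH, had 9.98, 9.95 and 9.86 in the controls and 10.29, 10.08 and 10.21 in the floxed arrays. The difference was 0.26 (SE 0.12, limma adjusted p = 0.999), without overlap. All 10 of its probe sets had a difference above 0, from 0.08 to 0.61, and 5 were without overlap. Centred first, the difference was 0.27. Its partner Ndufv2, which carries an iron-sulfur cluster, had 8 of 8 probe sets above 0, but its gene values of 11.87, 10.98 and 11.59 in the controls overlapped with 12.14, 11.70 and 11.55 in the floxed arrays. The difference was 0.32. It was 0.07 on leaving out control replicate 2 and 0.15 on leaving out floxed replicate 1, and it was 0.52 on leaving out control replicate 1.

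Core subunits near the ubiquinone site had differences below 0. Ndufs7 and Ndufs8, which carry the last iron-sulfur clusters before ubiquinone, had differences of −0.13 (SE 0.14) and −0.24 (SE 0.16). Without control replicate 1 they were 0.0047 and −0.07. Ndufs7 was also nearer 0 without floxed replicate 1 (−0.07) and farther without control replicate 3 (−0.26). Ndufs8 had −0.15 without floxed replicate 2, and −0.39 and −0.36 without control replicates 2 and 3. Ndufs7 was the 1 gene with all of its probe sets lower on average, 7 of 7. On 2 of these each floxed array lay below each control array, and probe set 10364745 had 11.61, 11.21 and 11.21 in the controls and 10.71, 10.88 and 11.08 in the floxed arrays. For Ndufs8, 7 of 8 probe sets were lower, and its gene values of 11.02, 10.62 and 10.44 in the controls overlapped with 10.61, 10.28 and 10.49. Ndufs3, which lies beside them in the peripheral arm, had 0.06, with 7 of 7 probe sets above 0, and −0.0465 without control replicate 3. None of the 3 genes passed.

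Of the accessory genes, Ndufb10 had 9.270, 8.996 and 8.375 in the controls and 9.30, 9.59 and 9.61 in the floxed arrays. The groups were 0.03 log2 apart at their nearest values, and the difference of 0.62 (SE 0.22, limma adjusted p = 0.999) was 0.37 without control replicate 3. The Ndufb10 value on control replicate 3 came from probe set 10448742 and those on the other arrays from probe set 10448741. Probe set 10448741 had 9.28 on control replicate 3 and a difference of 0.32. Probe sets 10448742 and 10448740 had differences of 0.79 and 0.20. Ndufa4, the subunit now assigned to complex IV, had 8.86, 8.30 and 8.77 in the controls and 9.05, 9.08 and 9.26 in the floxed arrays, a difference of 0.49 (SE 0.18) that was 0.32 without control replicate 2. All 5 of its probe sets were above 0 and 3 were without overlap. Ndufc2, of the membrane arm, had 12.26, 12.19 and 12.02 in the controls and 12.37, 12.36 and 12.37 in the floxed arrays (difference 0.21, SE 0.10). These close floxed values were all from probe set 10555057. Probe set 10555056 had 12.06, 12.25 and 12.33 there and probe set 10555058 had 12.54, 12.71 and 12.83, both overlapping with the controls. Ndufb5, also of the membrane arm, had 10.05, 10.07 and 9.65 in the controls and 10.18, 10.20 and 10.20 in the floxed arrays (difference 0.27, SE 0.14, and 0.13 without control replicate 3). The floxed values of Ndufb5 each came from a different probe set. Ndufb10, Ndufa4, Ndufc2 and Ndufb5, with Ndufs6, Ndufb6, Ndufs1 and Ndufv1, were the 8 genes without overlap. With each probe set centred first, the groups of Ndufc2 and Ndufs6 overlapped.

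Ndufa9, which binds NADPH in the peripheral arm, had 0.24 (SE 0.14) with 10 of 10 probe sets above 0. Ndufa11 and Ndufa10, of the membrane arm, had 0.21 (SE 0.13) and 0.17 (SE 0.13). Ndufa10 had 0.09 without control replicate 3 and 0.09 without floxed replicate 3, 0.04 with probe sets centred first and 0.0138 with their mean. In these 3 genes the groups overlapped. Ndufab1, the mitochondrial acyl carrier protein, had 0.18 as a gene, while its 5 probe sets ran from 0.02 to 1.12. The remaining genes had differences between −0.13, for Ndufv3, and 0.22, for Ndufa6, which had −0.0488 without control replicate 3. Over all 184 kept probe sets of the 36 genes, 136 (73.9%) had a difference above 0, against 58.8% of all kept probe sets. Groups were apart on the higher side for 25 (13.6%, against 6.46%) and on the lower side for 5 (2.72%, against 2.98%), and 0 passed (smallest limma adjusted p = 0.975). All kept probe sets of a gene lay above 0 for 15 genes, among them Ndufb3 with its single one, and below 0 for 1 gene. The shares of all genes tested for these counts were not computed.

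The control arrays differed among themselves more than the floxed arrays did. The median SD of a complex I gene was 0.225 log2 in the controls and 0.150 in the floxed arrays, and it was 0.228 and 0.137 over all genes tested. Of the 36 genes, 20 (55.6%) had their lowest value of all arrays on control replicate 3, where 34.7% of all genes tested had it. At the other end, 15 (41.7%) had their highest value on control replicate 1, against 22.5% of all genes tested, and 11 on floxed replicate 3. The median deviation of the 36 genes from their own means was 0.08, −0.07 and −0.22 log2 on the controls and 0.01, 0.03 and 0.12 on the floxed arrays. The controls thus enclosed floxed replicates 1 and 2, and control replicate 1 lay above both.

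**Figure D3:**
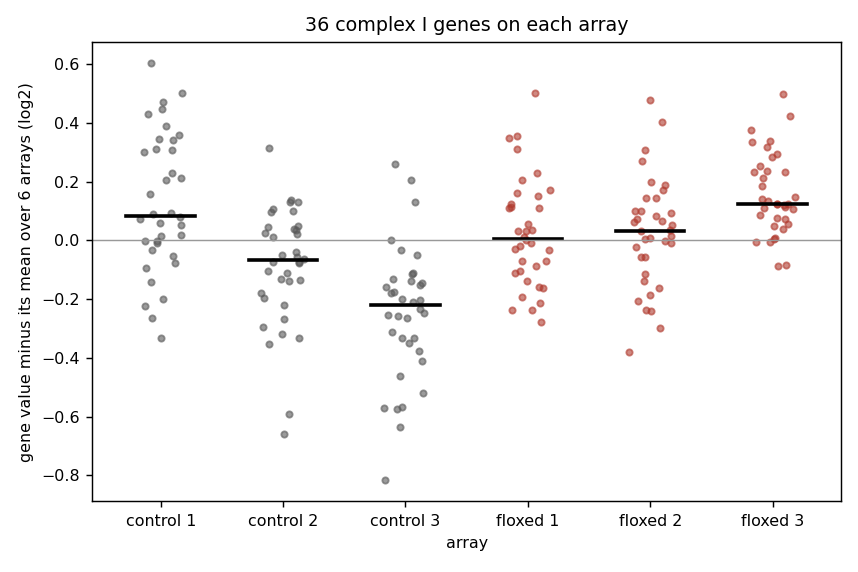
Value of each of the 36 complex I genes minus its mean over the 6 arrays in log2 (vertical axis), by array (horizontal axis), grey for control and red for floxed; each point is a gene and black bars are medians. The medians run from −0.22 on control replicate 3 to 0.12 on floxed replicate 3, and control replicate 1 stands at 0.08.

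The genes co-varied over the arrays. Pearson correlation between 2 complex I genes over the 6 arrays had a median of 0.39 over 630 pairs, 76.0% of which were above 0. Over all pairs of genes tested the median was 0.04, for genes of complexes II to V it was 0.48, and for cytosolic ribosomal proteins 0.27. These values describe 6 shared arrays, and genes are not independent replicates. With each gene centred on the mean of its group, the median was 0.44 for complex I, 0.52 for complexes II to V and 0.07 for ribosomal proteins, against 0.04 over all pairs. Without control replicate 3 the median over complex I pairs was 0.21, against 0.01 over all pairs. It was 0.24 under quantile normalization and 0.27 with equal array medians.

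Pairs within the membrane arm had a median correlation of 0.51, and pairs within the peripheral arm 0.25, a difference that was not tested. Without control replicate 3 they were 0.31 and 0.05. By letters it was 0.44 for a, b and c and 0.20 for s and v, and 0.24 and 0.12 without that array. Ndufa10, Ndufb7 and Ndufb10, all of the membrane arm, followed the other genes most closely, with median correlations of 0.64, 0.62 and 0.59. Ndufa1, Ndufa5 and Ndufs5 followed them least, at −0.22, −0.19 and −0.04. Their log2 values show this: Ndufa5 had 8.44, 8.25 and 8.64 in the controls, so that control replicate 3 was its highest, and 8.37, 8.15 and 8.46 in the floxed arrays. Ndufa1 had 8.71, 8.95 and 8.98 in the controls and 8.69, 8.71 and 9.06 in the floxed arrays. The 3 genes rested on 3 of 5, 3 of 5 and 2 of 3 probe sets, and probe sets of Ndufs5 and Ndufa5 differed in course. For Ndufs5, probe set 10435785 had 8.03, 8.45 and 9.40 in the controls and probe set 10516212 had 8.46, 7.51 and 7.32. The Ndufa5 value came from probe set 10543443, except on floxed replicate 1. Its probe sets 10543445 (8.05, 7.62 and 7.02) and 10543446 (9.52, 9.65 and 9.33) were lowest in the controls on replicate 3. Low correlations of these genes can thus reflect single probe sets. With no filter on dim probe sets their differences turned from −0.06, −0.12 and −0.08 to 0.21, 0.39 and 0.32. The most alike pair was Ndufb6 and Ndufc2 (0.98), followed by Ndufs1 and Ndufv1 (0.98), which lie side by side at the flavin end. Other genes of the peripheral arm followed Ndufv1 and Ndufs1 unequally. Ndufs6 had 0.79 and 0.86 with them, Ndufv2, the partner of Ndufv1, had 0.535 and 0.40, and Ndufv3 had −0.02 and −0.23.

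**Figure D4:**
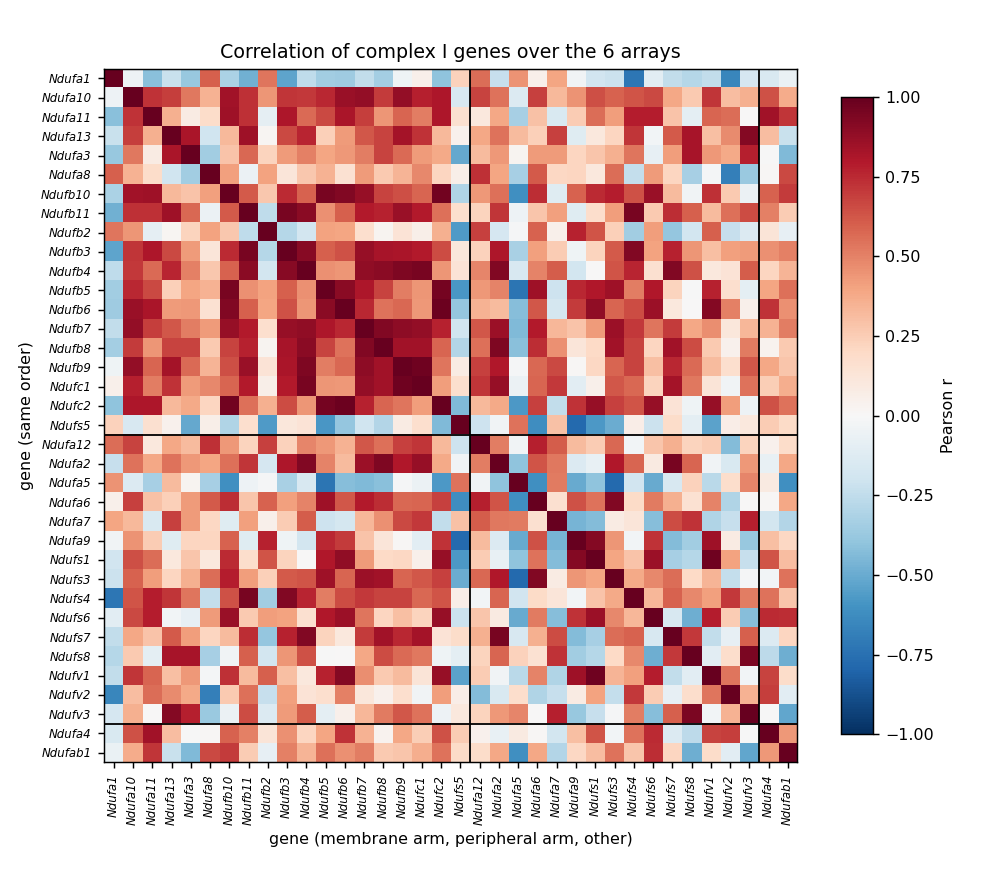
Pearson correlation over the 6 arrays (colour, −1 to 1) for each pair of the 36 complex I genes, with genes of the membrane arm first, then of the peripheral arm, then Ndufa4 and Ndufab1, separated by black lines. The membrane block has a median of 0.51 and the peripheral block 0.25, with Ndufa1 and Ndufa5 standing out by values below 0.

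Other genes of the respiratory chain had differences of like size. Of 16 listed assembly factors of complex I, which build the enzyme without staying in it, 15 were tested, 13 were above 0 (86.7%, against 54.2% of all genes tested) with a median of 0.13, and 0 passed. Ndufaf2 had 0.31 (SE 0.19) and Ndufaf7 had 0.30 (SE 0.21), both with overlap. Of 39 genes of complexes II to V, 32 were above 0 (82.1%) with a median of 0.11, 6 had groups without overlap on the higher side, where 5.57% of all genes tested did, and 0 passed. The genes of smallest p were Atp5k (0.48, SE 0.19) and Atp5pb (0.27, SE 0.12), both of ATP synthase. Of 12 regulators of mitochondrial biogenesis, 9 were above 0 with a median of 0.16 and 0 passed. Gabpa, which encodes the ETS subunit of GABP, had 9.84, 9.56 and 9.10 in the controls and 10.07, 9.89 and 9.91 in the floxed arrays (0.46, SE 0.18, limma adjusted p = 0.999), and its partner Gabpb1 had 0.16 (SE 0.13). Of 30 tested cytosolic ribosomal proteins, 24 were above 0 (80.0%) with a median of 0.13, 9 had groups without overlap on the higher side, and 0 passed. These lists were also low on control replicate 3. Mean deviations on the controls were 0.124, −0.028 and −0.296 log2 for assembly factors and 0.0874, −0.0312 and −0.211 for complexes II to V. They were 0.111, 0.00918 and −0.288 for the regulators and 0.0183, −0.0919 and −0.125 for ribosomal proteins. Counts and medians of these lists without that array were not computed. The genes of complex I subunits encoded in mitochondrial DNA were not analysed here.

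Cell type markers varied over the same arrays. On average the 36 complex I genes deviated by 0.129, −0.0895 and −0.248 log2 on the controls and by 0.0250, 0.0253 and 0.158 on the floxed arrays. The 8 tested of 9 B cell markers deviated by 0.804, 0.203 and −0.981 on the controls and by −0.295, −0.141 and 0.409 on the floxed arrays. Cd79a, a part of the B cell receptor, had 10.70, 9.37 and 7.06 in the controls and 8.99, 8.85 and 9.84 in the floxed arrays. It varied most of the list in the controls, and Vpreb1, of the same list, went the other way with 8.91, 8.85 and 9.11 in the controls and 8.41, 9.09 and 8.94 in the floxed arrays. The 8 tested stem cell gate genes deviated by 0.152, −0.103 and −0.125 on the controls and by −0.0286, −0.0233 and 0.127 on the floxed arrays. All 3 lists were lowest on control replicate 3 and had control replicate 1 and floxed replicate 3 as their highest arrays. The 13 tested of 14 granulocyte and macrophage markers deviated by 0.413, 0.445 and −0.381 on the controls and by −0.378, −0.337 and 0.238 on the floxed arrays. The 8 tested of 11 erythroid and megakaryocyte markers ran from −0.0436 to 0.216 on the controls and from −0.231 to 0.183 on the floxed arrays, and the 5 tested of 9 T and NK cell markers from 0.0613 to 0.153 and from −0.349 to 0.149. The part of these cells in the complex I values was not tested, and in sorted bulk samples fewer cells of a type and less RNA per cell cannot be told apart.

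**Figure D5:**
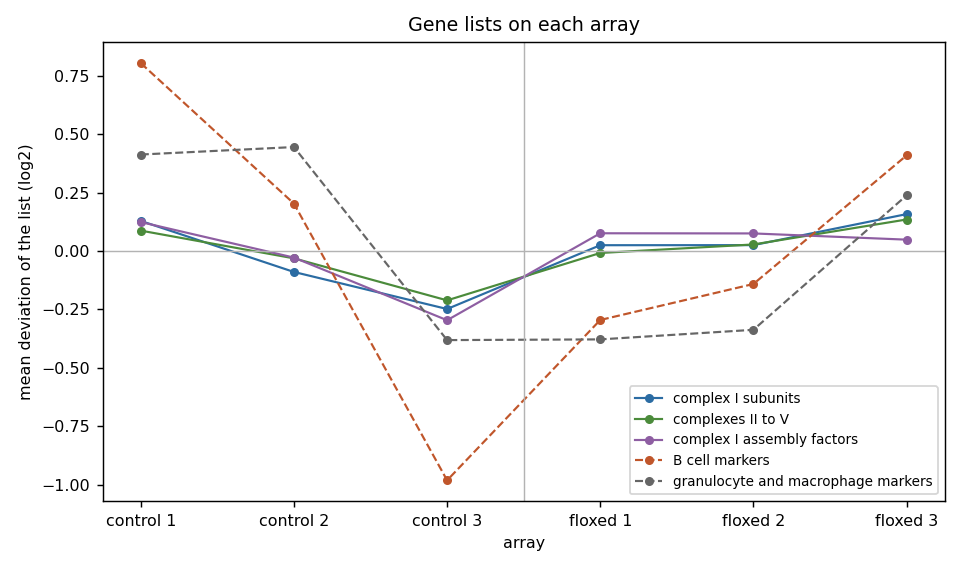
Mean deviation of the genes of a list from their own means over the 6 arrays in log2 (vertical axis), by array (horizontal axis), for complex I subunits, complexes II to V, complex I assembly factors, and markers of B cells and of granulocytes and macrophages (dashed); lines only join the values of a list. All 5 lists are at or near their lowest on control replicate 3, where complex I stands at −0.248 and the B cell markers at −0.981.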

How the data were processed

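Expression was measured in 6 samples, 3 control and 3 floxed, grouped by their titles. The deposited table held log2 values for 241576 probe sets, between 2.44 and 14.53, with array medians of 7.56 to 7.65. That the log base is 2 follows from their range. MAS5 is named in the submitters' processing notes, without a role, and background correction, summarisation and normalization are not given in the sources used here. Per the labels' protocols, 100 ng of total RNA went into biotinylated cRNA. No further normalization was applied.

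The platform's annotation assigned 1 gene to 212097 probe sets, and symbols were updated through RefSeq (GRCm38.p6). A probe set was kept if its mean over the 6 arrays was at least 7.60, the median of all these means. Gene values were medians over kept probe sets. The test was limma's, version 3.58.1 under R 4.3.3 (lmFit, eBayes with trend, two-sided, Benjamini-Hochberg over 14586 genes, threshold 0.05), and probe sets likewise over 120788. Values were read by the R package data.table, version 1.17.8. The test was tried on simulated data. Differences are floxed minus control.

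The genes and lists were chosen with earlier results of these data known. Named genes were the 8 (letters a, b, c) and 5 (letters s, v) with the smallest p, the 3 with the highest and the 3 with the lowest median correlation with the others, and 2 per other list. Other genes were named after seeing their values. As alternatives there were 2 normalizations, 2 filters, the mean of probe sets, 2 variance models, array weights, a replicate block and leaving out each array. Centring of probe sets, leaving out Ndufa4 and settings for single probe sets were added after the data were seen.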

Additional observations from a re-analysis of the deposited data

How the results depend on the processing

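No complex I gene passed under any alternative other than array weights, which passed 5 of 36 (and 404 of all genes, with 0 in the unweighted fit): Ndufs6 (0.72, limma adjusted p = 0.0185), Ndufb6 (0.53, 0.0262), Ndufa4 (0.74, 0.0262), Ndufv2 (0.68, 0.0413; 0.32 unweighted) and Ndufb10 (0.57, 0.0495). Under array weights 22.2% of all genes tested had an unadjusted p under 0.05, against 3.70% unweighted. The count over all genes was 2 with no filter, 1 with the mean of probe sets and 0 to 2 when 1 array was left out. The number of complex I genes above 0 ran from 17 to 30, and their median difference from −0.0145 (without control replicate 3) to 0.174, when 1 array was left out. The median pairwise correlation was 0.241 with quantile normalization, 0.268 with equal array medians, 0.520 with the mean of probe sets, 0.536 with probe sets centred first and 0.209 to 0.490 when 1 array was left out. Without Ndufa4, 24 of 35 genes were above 0 with a median of 0.10. For single probe sets 0 passed under each of 4 alternatives.

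Some differences turned sign. With no filter, Ndufa1, Ndufa5 and Ndufs5 had 0.21, 0.39 and 0.32. At the 75th percentile filter, which left 34 of the genes, Ndufa1 had 0.16, Ndufa5 0.40 and Ndufa11 −0.0045. With the mean of probe sets Ndufa1 had 0.10 and Ndufa5 0.22, and centred first they had 0.10 and 0.14. With array weights Ndufs5 had 0.10, Ndufs3 −0.0259 and Ndufa6 −0.11. Leaving out 1 array gave Ndufb7 −0.0349 to 0.41, Ndufa1 −0.18 to 0.0078, Ndufs5 −0.19 to 0.0058, Ndufs7 −0.26 to 0.0047, Ndufs3 −0.0465 to 0.13 and Ndufa6 −0.0488 to 0.43; the turned values came without control replicate 3 (Ndufb7, Ndufs5, Ndufs3, Ndufa6), without control replicate 1 (Ndufs7) or without floxed replicate 1 (Ndufa1, Ndufs5). The cause was not tested.

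With the replicate number as a block, 0 complex I genes passed, 25 were above 0 and the median was 0.13. The deviations of same-numbered arrays correlated at 0.198, −0.00365 and −0.243 across genes, so the numbers were not taken as pairs.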
